A study of Mus musculus with 3 samples.

Results

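Immune checkpoint and T cell exhaustion genes were followed across the cell classes of the mouse liver by droplet single-cell RNA sequencing of its hepatocytes and nonparenchymal cells. They were taken by symbol, and all 10 (Pdcd1, Ctla4, Tigit, Lag3, Havcr2, Icos, Tnfsf4, Cd274, Entpd1 and Tox) were found among the 55357 genes measured. There were 3 libraries, each made from the pooled liver cells of 2 wild-type male C57BL/6 mice that were 8 weeks old at the start. The control mice (CON) were untreated and kept under standard conditions. The HFD mice received a diet with 60% of its kcal from fat for 4 months. The CCL4 mice received chow for 3 months and then, for 4 weeks, 2 intraperitoneal injections per week of 0.1 mL of a 10% carbon tetrachloride solution. All livers were perfused with collagenase, and hepatocytes and nonparenchymal cells were mixed 1:1 before loading, so the shares of cell classes were set in part by the mixing. With 1 library per condition no difference between conditions could be tested, and every interval below is a 95% interval that covers counting error only.

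Checkpoint receptors are switched on when a T cell is activated and restrain it when they meet their ligands on neighbouring cells. Pdcd1 encodes PD-1, which binds PD-L1 (the product of Cd274), Ctla4 competes with the costimulatory receptor CD28 for its ligands, and Tigit, Lag3 and Havcr2 (TIM-3) are further inhibitory receptors. T cells that meet antigen for long periods keep several of these receptors together with the transcription factor TOX and the ectoenzyme CD39 (Entpd1), a state called exhaustion, while Icos and the OX40 ligand Tnfsf4 belong to the costimulatory side. In the liver, macrophages and sinusoidal endothelial cells also carry PD-L1 and CD39.

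The genes lie on chromosomes 1, 4, 6, 11, 16 and 19 of the mouse genome (GRCm38). Ctla4 (chr1:60887000-60915832, plus strand) and Icos (chr1:60977927-61000320, plus) are neighbours, Pdcd1 (chr1:94038305-94052553, minus) and Tnfsf4 (chr1:161395409-161418410, plus) lie further along chromosome 1, Tigit is at chr16:43648867-43664146 (minus), Lag3 at chr6:124904361-124911705 (minus), Havcr2 at chr11:46454935-46481255 (plus), Cd274 at chr19:29367455-29388095 (plus), Entpd1 at chr19:40612366-40741602 (plus) and Tox at chr4:6686353-6991557 (minus). All are protein-coding. In all, 5 of them overlap another annotated gene. Icos overlaps the unclassified gene Gm37039 on the same strand, which had 199 UMIs in T cell-like cells, so reads of the pair could have been split or dropped and the Icos level is uncertain to that extent. Cd274 overlaps an antisense gene with 24 UMIs there, Ctla4 a pseudogene with 18, and the partners of Entpd1 and Tox had at most 2.

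The promoters of 4 inhibitory receptors are shown because these receptors carry the reading of exhaustion and are known targets of NFAT and AP-1, the factors that carry the T cell receptor signal. The sequences are the 250 bases before the RefSeq start on GRCm38.p6, written 5′ to 3′ on the strand of the gene. They span chr1:94052554-94052803 for Pdcd1 (minus), chr1:60908775-60909024 for Ctla4 (plus), chr16:43664185-43664434 for Tigit (minus) and chr11:46454681-46454930 for Havcr2 (plus). Capitals mark GGAAA or its complement TTTCC, the core that NFAT binds, and TGANTCA, the core that AP-1 binds.
Pdcd1: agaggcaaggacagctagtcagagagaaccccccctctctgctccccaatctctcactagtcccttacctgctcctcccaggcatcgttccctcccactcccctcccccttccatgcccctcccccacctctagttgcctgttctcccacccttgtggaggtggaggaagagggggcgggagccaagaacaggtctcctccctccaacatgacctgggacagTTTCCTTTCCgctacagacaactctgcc
Ctla4: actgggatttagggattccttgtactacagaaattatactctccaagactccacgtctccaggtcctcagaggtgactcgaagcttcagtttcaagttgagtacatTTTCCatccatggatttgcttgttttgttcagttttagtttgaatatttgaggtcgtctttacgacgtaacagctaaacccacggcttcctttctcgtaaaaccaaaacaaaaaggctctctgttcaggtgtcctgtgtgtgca
Tigit: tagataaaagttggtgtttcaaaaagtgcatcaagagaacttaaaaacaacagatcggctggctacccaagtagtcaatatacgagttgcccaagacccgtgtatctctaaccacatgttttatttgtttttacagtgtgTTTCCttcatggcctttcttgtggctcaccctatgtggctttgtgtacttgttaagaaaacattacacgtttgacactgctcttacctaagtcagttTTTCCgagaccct
Havcr2: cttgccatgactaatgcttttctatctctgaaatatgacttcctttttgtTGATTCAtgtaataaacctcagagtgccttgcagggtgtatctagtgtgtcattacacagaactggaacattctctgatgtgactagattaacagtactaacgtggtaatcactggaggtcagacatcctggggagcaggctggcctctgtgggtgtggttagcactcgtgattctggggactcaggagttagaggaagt
GGAAA was found 2 times in the Pdcd1 window, 1 time in Ctla4, 2 times in Tigit and 0 times in Havcr2, on either strand, and TGANTCA was found 1 time, in Havcr2. Of all 32851 mouse promoter windows of this length, 55.6% held GGAAA and 6.75% held TGANTCA, so a match to GGAAA is common. Such matches are a description of the letters and not of binding.

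The libraries held 11245 (CON), 12984 (HFD) and 12761 (CCL4) barcodes with 34061186 to 49613255 UMIs in all and a median of 2173 to 2939 UMIs per barcode. T cell-like cells, named from Cd3 and T cell receptor genes, numbered 1746, 2140 and 2005. They came almost entirely from clusters of a single library, 1 for HFD (2082 of its 2154 cells), 1 for CCL4 (1896 cells) and 2 for CON (1159 and 524 cells). The class differed between libraries in its own markers, with Cd3e detected in 71.8%, 46% and 40% of cells and Cd8a in 28.1%, 14.4% and 14.2%. It also differed in the share of its UMIs from 1365 genes, either higher in hepatocyte-like than in T cell-like cells or mitochondrial. That share was 21% in CON, 40.2% in HFD and 45.9% in CCL4. Albumin (Alb) was at 4361, 18627 and 37491 CPM (the UMIs of a gene scaled to the total UMIs of the class). These values move with every comparison to CON below, and their part in it was not tested. In addition, 137 barcode sequences were shared between libraries.

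Among inhibitory receptors in T cell-like cells, all 5 were at their highest CPM in CON. Pdcd1 was at 41.5 CPM (206 UMIs, interval 36.0 to 47.6) in CON, 10.5 (54 UMIs, 7.92 to 13.8) in HFD and 12.1 (53 UMIs, 9.03 to 15.8) in CCL4. Ctla4 was far better sampled, at 239 CPM (1185 UMIs, 225 to 253), 122 (623 UMIs, 112 to 132) and 127 (558 UMIs, 117 to 138). For both genes the HFD and CCL4 intervals overlapped and lay below that of CON. Havcr2 was at 31.6 CPM (157 UMIs, 26.9 to 37.0), 6.05 (31 UMIs, 4.11 to 8.59) and 4.55 (20 UMIs, 2.78 to 7.03). Lag3 was at 26.6 CPM (132 UMIs, 22.3 to 31.6), 7.23 (37 UMIs, 5.09 to 9.96) and 6.6 (29 UMIs, 4.42 to 9.47). Tigit was the scarcest, at 11.1 CPM (55 UMIs, 8.35 to 14.4), 3.32 (17 UMIs, 1.93 to 5.32) and 2.27 (10 UMIs, 1.09 to 4.18). Each of these again had a CON interval above the others, which overlapped. Since the libraries read the 3′ ends of messages, levels are compared for a gene across cells and not between genes.

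The other members followed the same order of CON first, with differences in the rest. Icos, an activating receptor of helper T cells, was at 224 CPM (1109 UMIs, 211 to 237) in CON, 119 (609 UMIs, 110 to 129) in HFD and 83.0 (365 UMIs, 74.7 to 92.0) in CCL4, and no 2 of its intervals overlapped. Tox was at 181 CPM (899 UMIs, 170 to 193), 52.3 (268 UMIs, 46.3 to 59.0) and 68.2 (300 UMIs, 60.7 to 76.4), with CCL4 above HFD beyond counting error. Cd274 was at 40.1 CPM (199 UMIs, 34.7 to 46.1), 13.9 (71 UMIs, 10.8 to 17.5) and 19.8 (87 UMIs, 15.9 to 24.4). Both Tox and Cd274 were thus lowest in HFD. Entpd1, which breaks down extracellular ATP, was at 25.6 CPM (127 UMIs, 21.3 to 30.5), 9.77 (50 UMIs, 7.25 to 12.9) and 6.14 (27 UMIs, 4.05 to 8.94). Tnfsf4 was at 25.4 CPM (126 UMIs, 21.2 to 30.2), 2.73 (14 UMIs, 1.49 to 4.59) and 0.227 (1 UMI, 0.00576 to 1.27), the widest spread of any member.

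**Figure D1:**
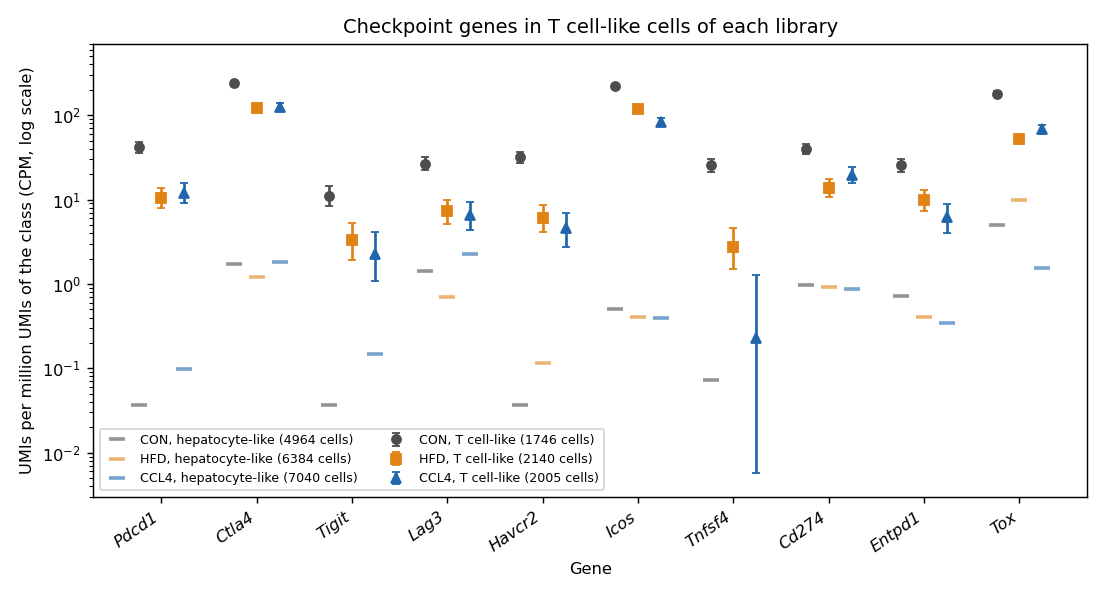
Levels of the 10 genes in T cell-like cells of the CON, HFD and CCL4 libraries, in CPM on a log axis, with exact Poisson 95% intervals as bars and the level in hepatocyte-like cells of the same library as a dash (not drawn at 0 UMIs). Every gene has its highest T cell point in CON, and Tnfsf4 in CCL4 rests on 1 UMI.

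The share of T cell-like cells with at least 1 UMI told the same order. In CON it ran from 2.98% of cells for Tigit and 4.07% for Tnfsf4 to 30% for Ctla4 and 32.4% for Icos, and was 9.16% for Pdcd1. In HFD Pdcd1 was detected in 2.2% and Ctla4 in 17.6% of cells, and in CCL4 in 2.39% and 18.9%. Median depths of the class were close, at 2378, 2212 and 2019 UMIs, and thinning each cell to 1000 UMIs left Pdcd1 at 4.11%, 1.01% and 1.18% and Ctla4 at 17.6%, 9.48% and 10.7%. Depth and thinning counted all UMIs, of which 21%, 40.2% and 45.9% came from the hepatocyte and mitochondrial genes named above. Depth outside those genes was therefore not made equal. Hepatocytes, which should lack these receptors, gave the background. Pdcd1 had 1, 0 and 2 UMIs in all hepatocyte-like cells (median depth 3805, 2292 and 2287 UMIs), and Ctla4 was detected in 0.866%, 0.329% and 0.469% of them. Tox in hepatocyte-like cells was detected in 2.52%, 2.62% and 0.455%, against 27.1%, 10.0% and 12.3% of T cell-like cells. The T cell shares therefore stood above the background for these genes in every library. For Tnfsf4 in CCL4 the T cell share was 0.0499%, or 1 cell.

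Set as ratios, 8 of the 10 genes were lower in HFD than in CON by at least 2-fold in T cell-like cells and 0 were higher, where 23.3% of 12102 genes with at least 20 UMIs were lower by as much and 11.2% higher. In CCL4 against CON 9 of 10 were lower and 0 higher, where 33.7% of 11848 genes were lower and 9.88% higher. Both comparisons use the same CON library. The median ratio of the members was 0.294 in HFD and 0.268 in CCL4, against 0.766 and 0.657 over all genes. The lowest ratios of HFD to CON were those of Tnfsf4 (0.108, interval 0.0572 to 0.187), Havcr2 (0.191, 0.126 to 0.283) and Pdcd1 (0.254, 0.185 to 0.344). Ctla4 (0.509, 0.462 to 0.562) and Icos (0.532, 0.481 to 0.588) were nearest to CON and stood just outside the 2-fold limit. In CCL4 the lowest were Tnfsf4 (0.00896, 0.000225 to 0.0508, from 1 UMI), Havcr2 (0.144, 0.0855 to 0.23) and Tigit (0.205, 0.0932 to 0.406), while Cd274 (0.493, 0.379 to 0.638) was just inside the limit and Ctla4 (0.531, 0.48 to 0.588) just outside. Between the 2 treatments 0 of 9 genes with enough UMIs differed by 2-fold, where 6.44% of 11413 genes were lower in CCL4 and 2.13% higher. In that comparison Icos was at 0.698 of its HFD level (0.611 to 0.796), Tox at 1.3 (1.1 to 1.54) and Cd274 at 1.43 (1.03 to 1.98), and the intervals of Pdcd1 (0.768 to 1.7), Ctla4 (0.929 to 1.17), Tigit (0.28 to 1.58), Lag3 (0.542 to 1.53), Havcr2 (0.406 to 1.36) and Entpd1 (0.379 to 1.02) reached 1.

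The median of all genes was itself 0.39 lower on the log2 scale in HFD and 0.61 lower in CCL4, beside the larger share of hepatocyte genes in these T cell-like cells. With CPM counted only over UMIs outside the hepatocyte genes, 7 members were lower in HFD by 2-fold (11.8% of such genes) and 6 in CCL4 (15.8%), and 0 were higher. On that scale Pdcd1 had ratios of 0.336 in HFD and 0.424 in CCL4, Havcr2 0.253 and 0.21, and Tox 0.382 and 0.55. Those of Ctla4 were 0.673 and 0.776, and those of Cd274 0.457 and 0.721. The receptor genes that defined the class were lower too. Cd3e was at 0.529 of CON in HFD and 0.469 in CCL4, and Trac at 0.611 and 0.498. The ratios of Ctla4 and Icos lay among those of Cd3d, Cd3e, Cd3g, Trac, Trbc1 and Trbc2 in HFD (0.444 to 0.694), and those of the other 8 genes lay below them. In CCL4 these T cell genes spanned 0.429 to 0.592, with Ctla4 (0.531) and Cd274 (0.493) among them and the other 8 genes, Icos (0.371) included, below. Fewer T cells in the class and less message per T cell cannot be told apart in these sums.

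**Figure D2:**
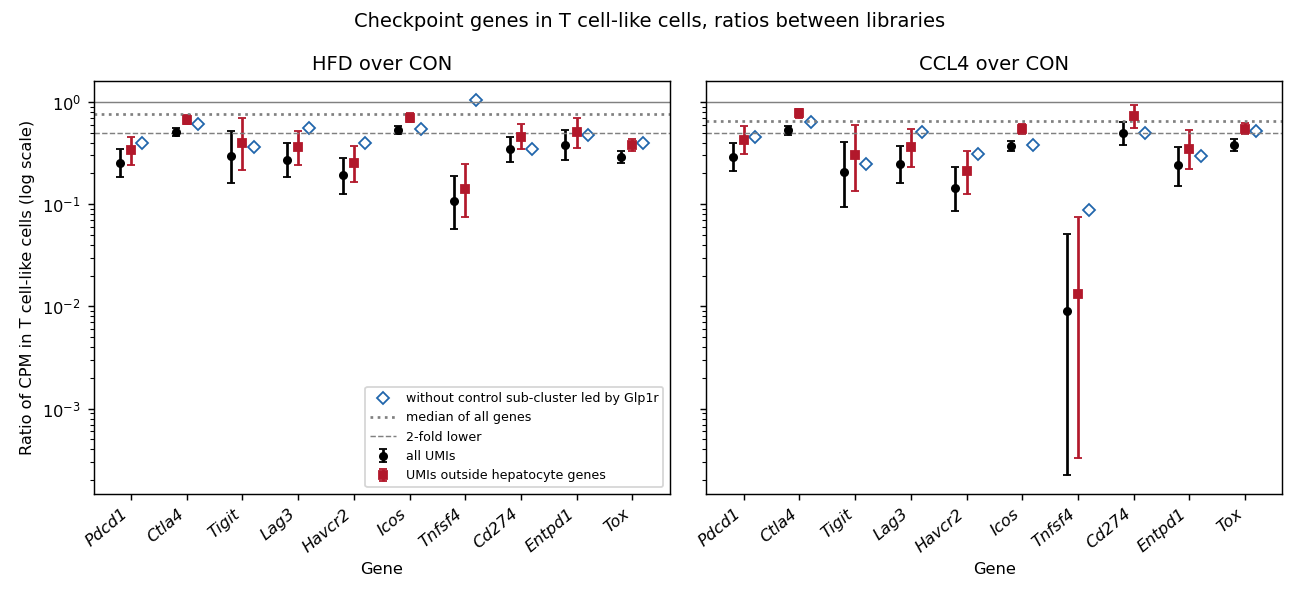
Ratio of T cell-like CPM in HFD and in CCL4 to CON for each gene, on a log axis, over all UMIs with exact 95% intervals, over UMIs outside hepatocyte genes, and without the CON sub-cluster led by Glp1r. The dotted line is the median of all genes and the dashed line a 2-fold lower level; Tnfsf4 in HFD moves from 0.108 to 1.05 without that sub-cluster.

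Cells with Cd8a or Cd8b1 and no Cd4 UMI (CD8-gated, 730 in CON, 581 in HFD and 628 in CCL4) were compared next. Cd3e was detected in 77.8%, 54.7% and 43.8% of them, and its CPM in HFD and CCL4 was 0.576 and 0.463 of CON, so the T cell genes that defined the class were lower here too. Pdcd1 was at 53.9, 12.9 and 21.6 CPM in them, Havcr2 at 53, 10.7 and 7.21, and Tox at 226, 75 and 85.8. Lag3 was at 46, 12.1 and 10.1 CPM, and Tnfsf4 at 55.3, 7.86 and 0. All 5 were highest in CON. Of the 10 genes, 9 were lower in HFD than in CON by 2-fold (22.6% of 9878 genes) and 7 in CCL4 (31.4% of 9768). CD4-gated cells were fewer (233, 114 and 45). Ctla4 was at 522, 349 and 211 CPM against 210, 97.8 and 151 in CD8-gated cells, and Icos at 265, 319 and 200 against 119, 62.8 and 68.5. Icos was thus not lower in the CD4-gated cells of HFD. Of members with enough UMIs there, 2 of 6 were lower in HFD than in CON by 2-fold (22.4% of 6087 genes), 3 of 5 in CCL4 (35.5% of 5447) and 1 of 3 in CCL4 than in HFD (13.2% of 2727). The CD4 to CD8 ratio of Ctla4 was 2.48 in CON (2.15 to 2.86) and 3.57 in HFD (2.71 to 4.67), while in CCL4 it was 1.4 from 20 UMIs and its interval (0.838 to 2.22) reached 1. That of Icos was 2.23 (1.83 to 2.71), 5.08 (3.73 to 6.92) and 2.93 (1.69 to 4.82). In CON, Pdcd1 (0.958) and Tox (1.14) were near 1, and Tnfsf4 had 0 UMIs in CD4-gated cells of all libraries. The 21 CON T cell-like cells with a UMI of Foxp3, the regulatory T cell factor, of which 42.9% had a Cd4 UMI, had Ctla4 at 1894 CPM from 104 UMIs, 3.95 times the 225 CD4-gated cells without Foxp3 (3.14 to 4.95), and Icos at 583 CPM, 2.3 times (1.52 to 3.37).

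When the T and NK cells were clustered again without the 10 genes among those used, a good part of the exhaustion messages of CON sat in a small sub-cluster. It held 131 cells, 130 of them CON, with Cd3e in 96.2% and Cd8a in 75.6% of cells and no Cd4, and its leading genes were Tnfsf4, Glp1r, Mrc2, Rnf165, Klrh1 and Penk. It was singled out after its values were seen, so what follows is a description. Tox was at 832 CPM, Ctla4 at 726, Tnfsf4 at 315, Icos at 302, Havcr2 at 261, Pdcd1 at 245, Lag3 at 204, Entpd1 at 103, Cd274 at 43.5 and Tigit at 35.3. Against the other control T cell-like cells 8 of 10 genes were higher by at least 2-fold, where 9.4% of 10750 genes were. The ratios were 127 for Tnfsf4 (69.8 to 252), 17.5 for Havcr2 (12.6 to 24.3), 16 for Lag3 (11.2 to 22.9), 9.18 for Pdcd1 (6.87 to 12.2) and 6.42 for Tox (5.56 to 7.39). Entpd1 (4.31), Tigit (4.13) and Ctla4 (3.77) followed, and Icos (1.38) and Cd274 (1.09, 0.596 to 1.84) were within 2-fold. These 125 cells of the T class carried 90.5% of its Tnfsf4 UMIs in CON, 56.7% of Havcr2, 54.5% of Lag3, 40.8% of Pdcd1 and 32.5% of Tox. Without them 6 genes, in place of 8, were lower in HFD by 2-fold and 6, in place of 9, in CCL4. No share of all genes was taken for this choice of cells, so these counts stand without a background. Tnfsf4 was at 1.05 of CON in HFD (14 UMIs against 12), and Lag3 at 0.556. In CCL4 Lag3 was at 0.507 of CON and Tox at 0.519. Tnfsf4 left the CCL4 count because it had too few UMIs over both libraries (1 against 12 in CON). Its level in CCL4 was still below CON, at 0.227 against 2.6 CPM. Pdcd1 stayed at 0.399 of CON in HFD and 0.456 in CCL4, and Havcr2 at 0.398 and 0.309.

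The companion lists are given for the same cells beside the 9.4% of all genes that were higher there by 2-fold and the 14.7% that were lower. Among 12 exhaustion and activation regulators 5 were higher and 3 lower by 2-fold than in the other control T cell-like cells, from Irf4, a factor induced by the T cell receptor, at 7.59 to Tcf7, which keeps T cells naive or stem-like, at 0.0209 (2 UMIs). Of 8 other inhibitory receptors 3 were higher, with Cd200r1 at 8.37, and 1 lower. Of 7 costimulatory receptors 3 were higher and 3 lower, with Tnfrsf9 (4-1BB) at 8.93 and Tnfrsf4, the receptor of the OX40 ligand, at 0 UMIs. Of 7 measured ligands of the members 2 were higher, led by Cd80 at 11.8, and 1 lower, Pvr at 0.173 (2 UMIs). Of 3 measured adenosine pathway genes 1 was higher, Cd38 at 3.3, and 1 lower, Nt5e at 0.0439 (1 UMI). The ends of each list are named here after their values were seen.

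**Figure D3:**
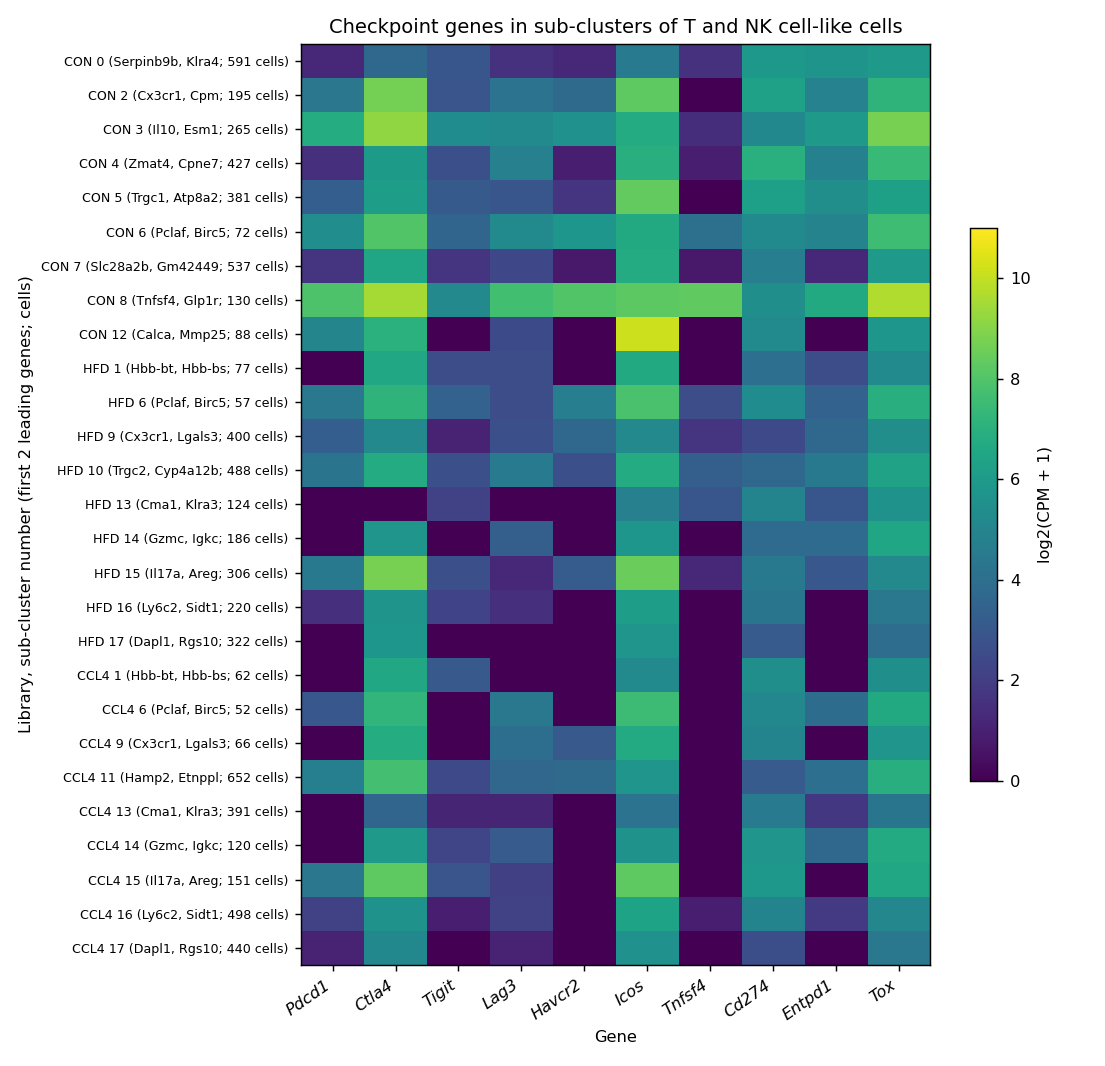
Levels of the 10 genes, as log2(CPM + 1), in each sub-cluster of T and NK cells and library with at least 50 cells. The CON sub-cluster led by Glp1r has the highest Tox, Ctla4, Havcr2, Pdcd1, Lag3, Entpd1 and Tnfsf4, and the CON sub-cluster led by Calca the highest Icos.

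Other control sub-clusters carried subsets of the members. They too were singled out after their values were seen, so these values are a description. The one led by Il10, Esm1, Cd4 and Maf (265 of 281 cells from CON) had Ctla4 at 575 CPM, 2.97 times the other control T cell-like cells (2.61 to 3.37), Tox at 428 CPM (2.89 times), Pdcd1 at 111 CPM (3.46 times, 2.53 to 4.67) and Tigit at 39.4 CPM (5.39 times, 3.01 to 9.5). It held 41.8% of the Tigit UMIs of the class but only 1 Tnfsf4 UMI, and its Icos was at 0.451 of the others. Of the 10 genes 5 were higher there by 2-fold (4.53% of genes) and 2 lower (10.9%). Tox, Pdcd1 and Ctla4 were high both in the sub-cluster with Cd8a and Tnfsf4 and in this one led by Il10. The latter had Cd4 in 39.2% and Cd8a in 19.2% of its CON cells. Icos had its own peak, 1153 CPM, in 88 control cells led by Calca, Mmp25, Il17re, Il23r and Blk, genes of IL-17-type γδ T cells, at 6.41 times the other control T cell-like cells (5.54 to 7.38).

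The treated libraries had these messages in other sub-clusters, which were also singled out after their values were seen. A sub-cluster led by Il17a, Areg, Tnfrsf4 and Cd4 was shared by the libraries (26, 306 and 151 cells) and had Ctla4 at 383, 422 and 309 CPM and Icos at 159, 363 and 312, with HFD at or above CON for both. In CCL4, 652 cells had hepatocyte genes (Hamp2, Etnppl, Serpina12 and Sds) as their leading genes. They carried 18 of the 20 Havcr2 UMIs of the class in that library, 77.8% of Entpd1 and 67.9% of Pdcd1, which was at 25.9 CPM, 4.64 times the other CCL4 T cell-like cells (2.54 to 8.8), and their Ctla4 was at 210 CPM and Tox at 122. They held 52.3% of the Ctla4 UMIs, 55.2% of Lag3 (16 UMIs) and 60% of Tigit (6 UMIs). Hepatocyte genes took 51% of their UMIs, against 45.9% in the whole CCL4 class, and the part of that RNA was not tested. Cd3e was detected in 45.9% of these 652 cells and Cd8a in 21%, against 40% and 14.2% of the CCL4 class. Hepatocyte genes were also among the leading genes of other sub-clusters made mostly of treated cells. Naive-like sub-clusters were near the low end in every library, with Pdcd1 between 0 and 3.54 CPM, Havcr2 at no more than 0.705 and Ctla4 between 34.0 and 86.7.

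Detection of several receptors in a cell was rarer outside CON. At least 1 of Pdcd1, Ctla4, Tigit, Lag3 and Havcr2 was detected in 36.5% of T cell-like cells in CON (34.3 to 38.8), 21% in HFD (19.3 to 22.8) and 22.1% in CCL4 (20.3 to 24). At least 2 were detected in 12.8% (11.3 to 14.5), 2.2% (1.62 to 2.91) and 2% (1.43 to 2.71), and at least 3 in 4.41%, 0.187% and 0.0998%. With each cell thinned to 1000 UMIs, hepatocyte genes included, the shares with at least 2 receptors were 4.5%, 0.633% and 0.623%. Without the control sub-cluster led by Glp1r, CON was at 7.77% for at least 2 (6.52 to 9.19), 1.73% for at least 3 (1.15 to 2.49) and, thinned, 2.3% for at least 2, so CON stayed above the intervals of the treated libraries with a smaller gap. In hepatocyte-like cells the unthinned share with at least 2 was 0.0201%, 0% and 0.0142%. In the control sub-cluster led by Glp1r, 97.7% of cells had at least 1 and 79.2% at least 2 (103 of 130). In CD8-gated cells at least 2 were detected in 18.2%, 3.1% and 3.98%, and in CD4-gated cells in 18%, 3.51% and 0%.

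**Figure D4:**
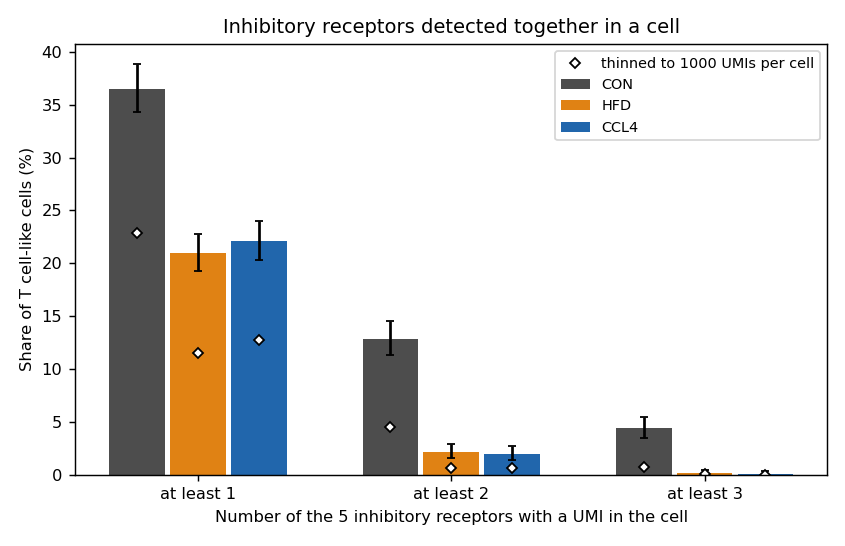
Share of T cell-like cells with at least 1, 2 or 3 of the 5 inhibitory receptors detected in each library, with exact Clopper-Pearson 95% intervals, and the expected share at 1000 UMIs per cell as diamonds. The share with at least 2 is 12.8% in CON and 2.2% and 2% in HFD and CCL4.

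Within CON, 160 T cell-like cells had a Pdcd1 UMI (median depth 2490 UMIs, against 2362 in the 1586 without). Ctla4 was detected in 67.5% of them against 26.2% of the others, Tox in 66.2% against 23.1%, Havcr2 in 25% against 4.6%, Tnfsf4 in 24.4% against 2.02%, Lag3 in 21.2% against 4.35% and Entpd1 in 14.4% against 5.42%. Icos (38.1% against 31.8%) and Cd274 (8.12% against 9.52%) differed little. Cd8a was detected in 50% against 25.9% and Il10 in 10.6% against 2.65%. The cells share 1 library, so this is a description of that library.

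NK cell-like cells, which kill without antigen receptors, were read mainly in CON (1145 cells, against 125 in HFD and 505 in CCL4), and many HFD cells with NK genes sat in the T class. Their leading members were Tox at 96.9, 56.6 and 34.9 CPM, Cd274 at 76.6, 23.3 and 32.1, Icos at 61.7, 13.3 and 27.4 and Entpd1 at 42, 9.99 and 4.72. Pdcd1 was near absent, at 3.55 CPM in CON and 0 UMIs in both others. In CON, T cell-like cells exceeded NK cell-like cells for Havcr2 (10.9 times), Ctla4 (7.62), Icos (3.62), Lag3 (2.17) and Tox (1.87), whereas Cd274 (0.524, 0.432 to 0.635) and Entpd1 (0.61) were higher in NK cell-like cells. Of 6 members with enough UMIs 5 were lower in HFD than in CON by 2-fold (27% of 9738 genes), and 6 of 7 in CCL4 (35.7% of 10145). These ratios compare unlike mixtures of cells. Leaving NK-like sub-clusters out of the T class took it from 2140 to 1947 cells in HFD and from 1746 to 1720 in CON. All 30 member ratios between libraries in T cell-like cells then stayed inside their main counting intervals. The part of these cells in the NK cell-like ratios was not tested. Control cells with NK genes were of unlike sorts. The 427 cells led by Zmat4, Cpne7, Cd200r2 and Kit had Tox at 167, Cd274 at 125, Icos at 123 and Lag3 at 26.4 CPM. They had Ncr1 in 67.4% and Cd3e in 2.81% of cells, and whether they are NK cells or a related type was not tested. The 591 cells led by the receptors Klra4 and Klra8 had Tox at 61.2, Cd274 at 57.2, Icos at 23 and Entpd1 at 50.6.

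In monocyte/macrophage-like cells (399, 1506 and 254) the members were those that act on T cells from outside or are shared by myeloid cells. Cd274 was at 32.5 CPM in CON, 52.3 in HFD and 16.9 in CCL4, Entpd1 at 56.2, 17.4 and 9.19 and Havcr2 at 40.8, 16.2 and 6.13. Cd274 was the only member of the 3 above its CON level in HFD, at 1.61 times (1.2 to 2.18), and it was at 0.519 in CCL4 (0.246 to 0.997). Entpd1 was at 0.309 of CON in HFD (0.225 to 0.422) and 0.164 in CCL4 (0.0587 to 0.369), and Havcr2 at 0.396 (0.28 to 0.559) and 0.15 (0.0399 to 0.402). Of 6 members with enough UMIs 2 were lower by 2-fold in HFD (15.5% of 10768 genes) and 2 of 5 in CCL4 (21.3% of 8813).

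The class was not made of the same cells in each library, and its sub-clusters differed in these genes. Cells led by Vcam1, Cd207 and the Kupffer cell gene Clec4f (70 in CON and 42 in HFD) had the most Entpd1, at 143 and 109 CPM, with Cd274 at 72.9 and 33.7. Cells led by Ace, Ear2 and Treml4, genes of patrolling monocytes (20 in CON, 546 in HFD and 10 in CCL4), had Cd274 at 154 in CON and 107 in HFD. Cells led by Mmp8, Chil3 and Vcan (632 in HFD) had it at 21.7, and 164 CON cells led by Thbs1 and Vcan at 7.64. The HFD class held many of the patrolling cells with high Cd274. In the 20 CON patrolling cells Cd274 rested on 9 UMIs (70.6 to 293). Both Vcan-led sorts carried classical monocyte markers, and there HFD (15.5 to 29.5) was above CON (2.48 to 17.8) with overlapping intervals. The part of cell make-up in the class ratio was not tested. Havcr2 was at 97.6, 34.2 and 37.4 CPM in the cells led by Cd209a, a dendritic cell gene, where Cd274 stood at 53.5, 51.2 and 43.7. Most of these cells formed a dendritic cell cluster of their own in HFD and CCL4 (204 and 142 cells, with 7 from CON), while those of CON lay in the monocyte/macrophage class. With the dendritic and doublet-like sub-clusters left out of the class, Havcr2 was at 25.2, 15.8 and 5.69 CPM, or 0.628 of CON in HFD (0.395 to 1.02), no longer past 2-fold, and 0.226 in CCL4. Entpd1 was then at 0.259 and 0.137 of CON and Cd274 at 1.52 and 0.492.

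Endothelial-like cells (156, 329 and 170) had Entpd1 as their leading member, at 60.7 CPM (44.3 to 81.2) in CON, 46.4 (33.8 to 62.1) in HFD and 8.9 (2.89 to 20.8) in CCL4. Its ratio to CON was 0.764 in HFD (0.494 to 1.18), which counting error cannot tell from 1, and 0.147 in CCL4 (0.0454 to 0.368). Entpd1 was detected in 17.3%, 8.51% and 2.94% of these cells. Of 3 members with enough UMIs 2 were lower by 2-fold in CCL4 (36.8% of 7752 genes), and 0 of 5 in HFD (15.7% of 8807). The hepatocyte share of endothelial UMIs was 18.8%, 37.1% and 51.7% in the 3 libraries. Icos at 25.6, 18.6 and 1.78 CPM and Ctla4 at 21.6, 21.7 and 12.5 were also counted in these cells, and Tnfsf4 had 0 UMIs. The T cell gene Cd3e was counted in the same cells at 22.9, 25.8 and 21.4 CPM (6.41%, 4.26% and 5.29% of cells), no doublets having been removed, and its part in these levels was not tested.

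**Figure D5:**
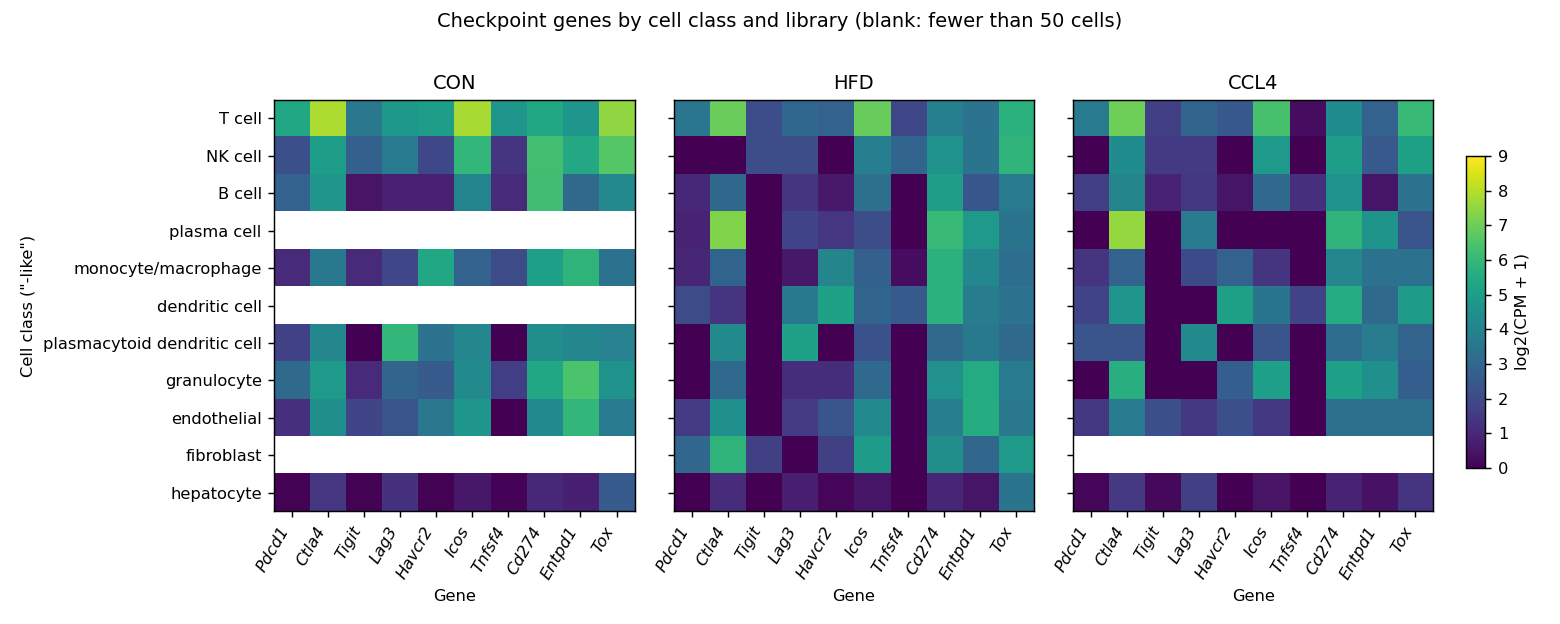
Levels of the 10 genes in each cell class and library, as log2(CPM + 1), with classes under 50 cells left blank. T cell-like cells lead for Pdcd1 and Icos in all 3 libraries and for Tox in CON and CCL4, Entpd1 is shared by myeloid and endothelial cells, and Lag3 is highest in plasmacytoid dendritic cells.

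Compared directly with monocyte/macrophage-like cells of the same library, T cell-like cells were higher by 2-fold for 7 of 10 members in CON (17.6% of 11736 genes), 5 of 8 in HFD (8.96% of 11704) and 5 of 8 in CCL4 (11.6% of 10006). In CON the ratios were 37.7 for Pdcd1, 36.9 for Icos, 20.7 for Ctla4, 19.4 for Tox, 10.1 for Tigit, 9.66 for Lag3 and 7.69 for Tnfsf4. These rest on few UMIs in the myeloid class, some of them in sub-clusters led by genes of T cells, B cells, neutrophils or red cells. Without those sub-clusters the counts were again 7, 5 and 5, while in CON Ctla4 was at 1.89 CPM in monocyte/macrophage-like cells and its ratio at 126 (43 to 612), that of Tox at 95.7 (32.6 to 465), that of Icos at 70.8 (30.3 to 219), and Pdcd1 and Tigit had 0 UMIs there. The 5 genes in HFD and in CCL4 were Pdcd1, Ctla4, Lag3, Icos and Tox. Entpd1 was on the myeloid side in CON (0.456), and Havcr2 (0.375) and Cd274 (0.265) in HFD. Ctla4 was higher in plasma cell-like cells (157 CPM in 270 HFD cells and 191 in 74 CCL4 cells) than in the T cell-like cells of these libraries, with 4 and 0 UMIs of Icos there. Lag3 had another source in all libraries: plasmacytoid dendritic-like cells (195, 98 and 196) held it at 61.2, 34.1 and 18.8 CPM, 2.3 times the T cell-like cells in CON (1.63 to 3.21), 4.72 in HFD and 2.86 in CCL4.

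The wider pathway, followed in T cell-like cells by lists written with earlier results of these data known, is read against the 23.3% of all genes that were lower in HFD and the 33.7% in CCL4. Of 8 other inhibitory receptors 2 were lower in HFD by 2-fold, from Vsir at 0.453 to Cd160 at 1.22, and 7 in CCL4, from Klrg1 at 0.208 to Cd96 at 0.515, so the HFD count was near that share. Of 7 costimulatory receptors 2 were lower in HFD, with Cd27 at 0.331 and Tnfrsf4 at 1.4 as the ends, again near the share of all genes, and 7 in CCL4, from Cd40lg at 0.221 to Tnfrsf18 at 0.462. Among 12 regulators 8 were lower in each, with Prdm1 the lowest (0.314 and 0.23) and Id3 the highest (0.894 and 0.909). The medians of these lists were 0.83, 0.665 and 0.408 in HFD and 0.33, 0.337 and 0.368 in CCL4. Of 8 measured ligands of the members 2 were lower and 2 higher in HFD, and 3 and 3 in CCL4, with Cd80 the lowest in both (0.272 and 0.141). Of the measured adenosine pathway genes, which handle what CD39 makes, 2 of 3 were lower in HFD and 3 of 3 in CCL4, with Nt5e (CD73) at 0.2 and 0.159. On the hepatocyte side, Fgl1, a ligand of LAG-3, was at 1353 CPM in CON hepatocyte-like cells, 385 in HFD and 178 in CCL4. It was also counted in T cell-like cells, at 556, 299 and 158 CPM, and is 1 of the ligands in the counts above, so those counts include a message of hepatocytes.

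Over the 39 pairs of class and library with at least 50 cells, the gene most like each member in log2(CPM + 5) was Cd3g for Icos (Pearson r = 0.93), Tcf7 for Tox (0.884), Gzmk for Pdcd1 (0.882) and Cd28 for Ctla4 (0.831), which are genes of T cells. For Tigit it was Abcb9 (0.835), for Lag3 Gm48369 (0.814) and for Tnfsf4 Camk4 (0.785). Havcr2 was closest to L1cam (0.867) and then to the dendritic cell gene Xcr1 (0.798), Cd274 to the leukocyte gene Cd52 (0.834) and Entpd1 to Hip1 (0.81). Pairs of class and library share libraries and depth, and 11296 genes were searched, so these values describe the ranking and carry no test.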

How the data were processed

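Single-cell 3′ libraries (10x Chromium) of 3 conditions, 1 library each, were used. What the authors deposited are unnormalized UMI counts, from Cell Ranger (version 7.2.0 by the matrix headers), and the submitters' notes also name Seurat. The study's methods name mm10 and the submitters' processing notes GRCm39 as the genome build, so counts were used by symbol, and positions come from a GRCm38 annotation. All 36990 barcodes had at least 1629 UMIs, and 36951 with at most 30% mitochondrial UMIs were kept. Depth and classes are as given above; intervals and limits from 3 counts cover counting error only, since only the number of UMIs sets them.

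Cells were clustered with scanpy 1.11.5 in Python 3.11.15 (2000 variable genes without 51 members and companion genes, 30 principal components, 15 neighbours, Leiden resolution 1.0, 39 clusters) and named from markers that reached 10% of cells and 1.5-fold, with at least 3 needed. T and NK cells and myeloid cells were clustered again with 1500 genes and 20 components. Scrublet marked 2, 1 and 3 barcodes and thus did not work, so no doublets were removed. UMIs were summed per class and library and given as CPM with exact Poisson, Clopper-Pearson and conditional 95% intervals. A difference was counted past 2-fold among genes with at least 20 UMIs over both sums compared. Hepatocyte genes were 1365 genes. They had at least 20 CPM in hepatocyte-like cells and 2-fold over T cell-like cells in any library, or were mitochondrial. Members and companion genes were left out of them. On simulated counts, 100% of 200 genes changed 4-fold were recovered in each comparison of T cell-like cells, and 1.27%, 1.32% and 1.7% of unchanged genes were called. The changed genes were well sampled and changed past the 2-fold limit, and only counting error was simulated. The recovery therefore does not speak for scarce members or for differences between mice or libraries.

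The members, lists and markers were chosen with earlier results of these data known. All 10 members are given, companion genes only as the ends of their list or the highest of a class, and likeness by the 3 highest correlations, of which the highest are named. Alternatives in cell filters, clustering, cell choice, scaling and thresholds were recomputed. Those that drop sub-clusters, use gated cells, leave doublet-like or dendritic cells out, or scale outside all hepatocyte genes were chosen after seeing the data.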

Additional observations from a re-analysis of the deposited data

Results flagged for a closer look

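Cd274, the PD-L1 gene, differed between cell classes in its direction under the same contrast. In HFD against CON its CPM ratio was 0.346 in T cell-like cells and 0.304 in NK cell-like cells but 1.61 in monocyte/macrophage-like cells, each with an interval on its own side of 1. In CCL4 against HFD the ratio was 1.43 in T cell-like cells and 0.322 in monocyte/macrophage-like cells. These differences between classes were not tested, because each condition is 1 library, and the classes were made of different clusters and sub-clusters in each library.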

How the results depend on the processing

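With 1 library per condition, no replicate could be left out. No paired analysis was possible because each group has 1 library and the groups share only replicate number 1. Over 16 alternatives 476 member ratios in T cell-like cells were recomputed, of which 461 kept their direction, and of 318 ratios to CON 315 stayed under 1, the exceptions being the reversed values below and Icos in HFD at 1.2 in CD4-gated cells. With 0 UMIs in both libraries, 4 ratios of CD4-gated cells could not be computed. The sizes of the ratios were less stable than their directions. Ratios moved outside their main counting interval 21 times in CD4-gated cells and 11 times without the control sub-cluster led by Glp1r. They did so 9 times with cells chosen by lineage genes and 8 times with median-of-ratios scaling. All 30 stayed inside it with each library clustered alone and at Leiden resolution 2.0. The reversed values were Tnfsf4 in HFD against CON at 1.05 without the control sub-cluster led by Glp1r (12 CON and 14 HFD UMIs) and Cd274 in CCL4 against CON at 1.51 in CD4-gated cells (8 CCL4 and 38 CON UMIs). In CD4-gated cells 2 members were past 2-fold in HFD against CON, 3 in CCL4 against CON and 1 in CCL4 against HFD, fewer cells and genes with 20 UMIs entering. In CCL4 against HFD, where 0 members were past 2-fold, 1 was with a 1.5-fold limit and 1 with no minimum of UMIs. Scaling outside all hepatocyte genes gave 7 in HFD and 6 in CCL4 against CON. Depth limits Tigit and Tnfsf4 most, at 10 and 1 UMIs in CCL4 T cell-like cells.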

Other observations

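Cd274 was at 88.1 CPM in 26 plasma cell-like cells of CON, 65.4 in 270 of HFD and 56.8 in 74 of CCL4, and at 74.6, 31.6 and 23.4 CPM in B cell-like cells. In the 26 CON plasma cell-like cells Ctla4 was at 362 CPM from 78 UMIs, with a UMI in 69.2% of them and 0 UMIs of Icos. Granulocyte-like cells had Entpd1 at 86.7, 45.9 and 21.8 CPM and Cd274 at 41.1, 22.3 and 32.6. In CON, 53 smooth muscle-like cells had Entpd1 at 153 CPM from 42 UMIs, and 93 basophil-like cells had Havcr2 at 75.4 CPM and Cd274 at 50.3.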
